A study of Saccharomyces cerevisiae with 24 samples.

Results

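*FZF1*, *SSU1* and *YHB1* are a regulator of the sulfite response of *Saccharomyces cerevisiae* and a pair of genes it is known to activate. They were taken by gene symbol from the probe annotation of Agilent yeast arrays, and are 3 of the 4073 genes with a symbol, each with 2 features on the array. The arrays were read in 2 colours, each sample being compared with a common pool of the RNA, and a level here is the log2 ratio of sample over pool, with the median gene of each array at 0. The strains were haploid *Mat a* strains of the S288c background (YJF173, *ho*, *ura3-52*) in which the native *FZF1* was deleted with KANMX. One of 4 alleles of *FZF1* was integrated at the *ura3* locus together with the *URA3* plasmid pRS306. Full length genes of *S. cerevisiae* and of *S. paradoxus* were used, and a pair of chimeras exchanged at the start codon. The C.P. chimera joined the 5′ noncoding region of *S. cerevisiae* to the coding region of *S. paradoxus*, and P.C. was the reverse. Cultures of independent transformants in rich medium with tartaric acid were sampled at 0 min, given sodium sulfite at 1 mM, and sampled again at 15 min. Each of the 8 groups of allele and time has 3 arrays, 24 in all. No array was of a strain without *FZF1* or of a culture left without sulfite for 15 min, so the effect of sulfite cannot be told apart from that of time in culture.

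Sulfite is a toxic intermediate of sulfate assimilation and a preservative of wine. *SSU1* encodes the plasma membrane pump that removes it from the cell, and *FZF1* encodes a zinc finger transcription factor that binds the *SSU1* promoter. *YHB1* encodes the flavohemoglobin that oxidises nitric oxide to nitrate, and its induction by nitric oxide is known to require Fzf1. *FZF1* (YGL254W) and *YHB1* (YGR234W) lie on chromosome VII and *SSU1* (YPL092W) on chromosome XVI. Positions within the chromosomes are not printed, since the files name no genome build.

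The probes are of *S. cerevisiae* design. *FZF1* read −5.57 to −2.47 on the 12 arrays of alleles with the *S. paradoxus* coding region, so its level was compared only between the *S. cerevisiae* allele and the P.C. chimera, which share the *S. cerevisiae* coding region. Of their 12 arrays, 11 read −0.11 to 2.21. The other was the array labelled *S. cerevisiae* allele, 0 min, replicate 2, where *FZF1* read −3.63, against 0.18 and −0.11 on the other arrays of its group. That value lies inside the range of the *S. paradoxus* coding region and goes against the label. The 2 features of *FZF1* differed by at most 0.24 over the 12 arrays of the *S. cerevisiae* coding region, so both features carry the low reading. *URA3*, the marker integrated beside the alleles, also stood apart there, at 1.20 against −1.97 and −1.89. Over all genes the array correlated with the other arrays of its group at 0.767 and 0.889, which correlated with each other at 0.836, and with the 9 arrays of the other alleles at 0 min at 0.643 to 0.912. Its identity was not tested further, and the main results it enters are given with and without it.

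**Figure D1:**
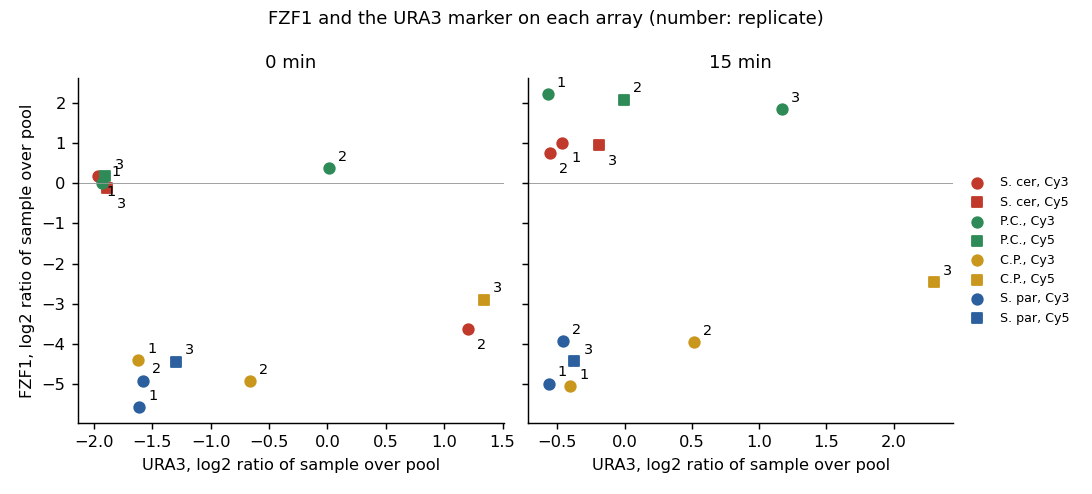
Level of *FZF1* (y axis) against level of the *URA3* marker (x axis) on each array, both as log2 ratio of sample over pool, at 0 and 15 min; colours are alleles, circles are arrays with the sample in Cy3, squares in Cy5, and numbers are replicates. The array labelled *S. cerevisiae* allele, 0 min, replicate 2 sits at −3.63 for *FZF1* and 1.20 for *URA3*, away from the other arrays of its group.

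*FZF1* rose after sulfite in the mean of the 2 alleles in which it could be read, by 1.98 (SE 0.51, adjusted p = 0.0039, 70.2% of genes called), and by 1.37 (SE 0.11) without the array labelled *S. cerevisiae* allele, 0 min, replicate 2. At 15 min its arrays lay higher with the *S. paradoxus* than with the *S. cerevisiae* noncoding region, a difference that passed in 1 of the fits described here. With the P.C. chimera *FZF1* read 0.00, 0.37 and 0.17 at 0 min and 2.21, 2.08 and 1.84 at 15 min. With the *S. cerevisiae* allele it read 0.18, −3.63 and −0.11 at 0 min and 1.01, 0.74 and 0.95 at 15 min. Every array at 15 min was above every array at 0 min within each allele, where 61.6% of 4067 genes (P.C. chimera) and 65% (*S. cerevisiae* allele) likewise did not overlap. From 0 to 15 min the change was 1.86 (SE 0.72) with the P.C. chimera (adjusted p = 0.0417, limma on these 12 arrays with Benjamini-Hochberg adjustment over 4071 genes). With the *S. cerevisiae* allele it was 2.09 (SE 0.72, adjusted p = 0.0245). Such a response was common, as limma called 57.3% and 58.4% of genes for these alleles. Without the array labelled *S. cerevisiae* allele, 0 min, replicate 2 the rise with the *S. cerevisiae* allele was 0.87 (SE 0.16, adjusted p = 0.000794). That of the P.C. chimera was then 1.86 (SE 0.14, adjusted p = 8.99e-07), among 55.7% and 57% of genes called. With that array kept, the P.C. response missed the limit when any 1 of 8 other arrays was left out, its own 6 and *S. cerevisiae* allele, 15 min, replicates 1 and 2 (1.77 to 1.97, adjusted p 0.0525 to 0.1). That of the *S. cerevisiae* allele missed it without its replicate 1 or 3 at 15 min (2.04 and 2.07, adjusted p = 0.0601 and 0.0521). With the alleles of *S. paradoxus* coding region in the fit and the array labelled *S. cerevisiae* allele, 0 min, replicate 2 left out, the response of the *S. cerevisiae* allele was 0.87 (SE 0.56) and did not pass (adjusted p = 0.196).

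The P.C. chimera gave a mean *FZF1* level of 2.04 ± 0.19 (SD, n = 3) at 15 min, against 0.90 ± 0.14 (SD, n = 3) for the *S. cerevisiae* allele. The arrays did not overlap, which was so for 7.25% of 4067 genes in this comparison, and the difference was 1.14 or 2.21-fold. An exact permutation test gave a two-sided p of 0.1, the smallest that 3 against 3 arrays allow. In limma on all 12 arrays the SE was 0.72 and the difference did not pass (adjusted p = 0.998). No gene was called, and 154 had an unadjusted p under 0.05. Without the array labelled *S. cerevisiae* allele, 0 min, replicate 2, which takes no part in this difference but enters the pooled spread, the difference was again 1.14, with an SE of 0.14. *FZF1* was then the only gene called of 4070 (0.0246%; adjusted p = 0.0276). When the other 12 arrays were kept in the fit and that array left out, the SE was 0.50 and the adjusted p 0.998. Among the fits run, *FZF1* was called only where both the array and the alleles with the *S. paradoxus* coding region were left out.

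At 0 min the noncoding regions gave *FZF1* levels that were not resolved. The P.C. chimera averaged 0.18 ± 0.19 (SD, n = 3) and the *S. cerevisiae* allele −1.19 ± 2.12 (SD, n = 3), or 0.03 over its arrays 1 and 3. The difference was 1.37 (exact permutation test, two-sided, p = 0.3), and 0.15 (SE 0.16) without the array labelled *S. cerevisiae* allele, 0 min, replicate 2. The responses of *FZF1* differed between these alleles by −0.23 (SE 1.01, 95% interval −2.44 to 1.98). Without that array they differed by 0.99 (SE 0.22, unadjusted p = 0.000752), larger with the P.C. chimera, which did not pass after adjustment over all genes.

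**Figure D2:**
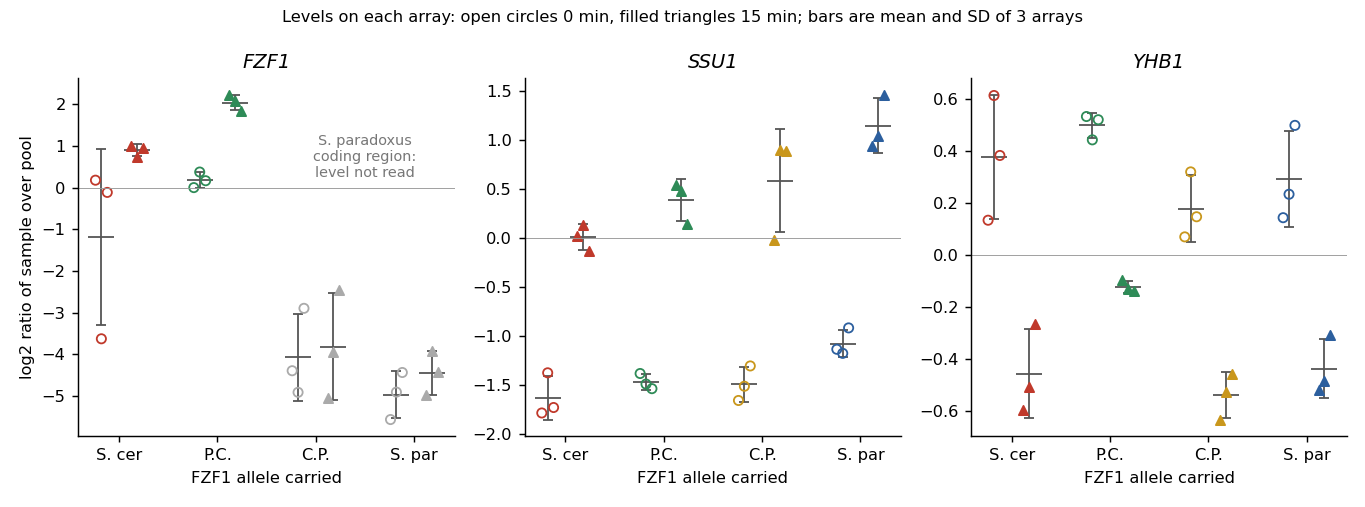
Level of *FZF1*, *SSU1* and *YHB1* on each array (log2 ratio of sample over pool, y axis) with the *S. cerevisiae* allele, P.C. chimera, C.P. chimera and *S. paradoxus* allele (x axis); open circles are 0 min, filled triangles 15 min, and bars the mean and SD of 3 arrays. *SSU1* rose and *YHB1* fell with each allele, and *FZF1* is grey where the coding region is not that of the probes.

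*SSU1* rose after sulfite with every allele, 3.86-fold on average, from negative levels in all groups at 0 min to levels near or above that of the pool. With the *S. cerevisiae* allele *SSU1* read −1.79, −1.38 and −1.73 at 0 min and 0.02, 0.13 and −0.13 at 15 min. With the *S. paradoxus* allele *SSU1* read −1.14, −1.18 and −0.92 at 0 min and 0.94, 1.04 and 1.46 at 15 min. The arrays of the *S. paradoxus* allele lay above those of the *S. cerevisiae* allele at both times, where 7.77% of genes at 0 min and 9.79% at 15 min did not overlap. The C.P. chimera read −1.66, −1.51 and −1.31 at 0 min and −0.03, 0.89 and 0.89 at 15 min. The P.C. chimera read −1.38, −1.49 and −1.54 at 0 min and 0.54, 0.48 and 0.14 at 15 min. No array at 0 min overlapped any at 15 min, as for 38.7% of genes, and the spread within a group was widest for the C.P. chimera at 15 min, where replicate 1 was low.

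The mean response of *SSU1* was 1.95 (SE 0.10, adjusted p = 1.72e-13, limma), in a background where 79.1% of genes were called and 39.5% rose past the test, and it ranked 126 of 4071 by its estimate. The response was 1.64 (*S. cerevisiae* allele), 1.86 (P.C. chimera), 2.08 (C.P. chimera) and 2.22 (*S. paradoxus* allele), each with an SE of 0.20. Each of these passed, as did 58.3%, 57.3%, 58.6% and 59.9% of genes in the same order. Without the array labelled *S. cerevisiae* allele, 0 min, replicate 2 the response was 1.77 (SE 0.22) for the *S. cerevisiae* allele and 1.98 in the mean. The order was not resolved: the responses of the full length alleles differed by 0.58 (95% interval 0.00 to 1.17, adjusted p = 0.52), and limma called no gene in its F-test of alleles by time (218 genes had an unadjusted p under 0.05).

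**Figure D3:**
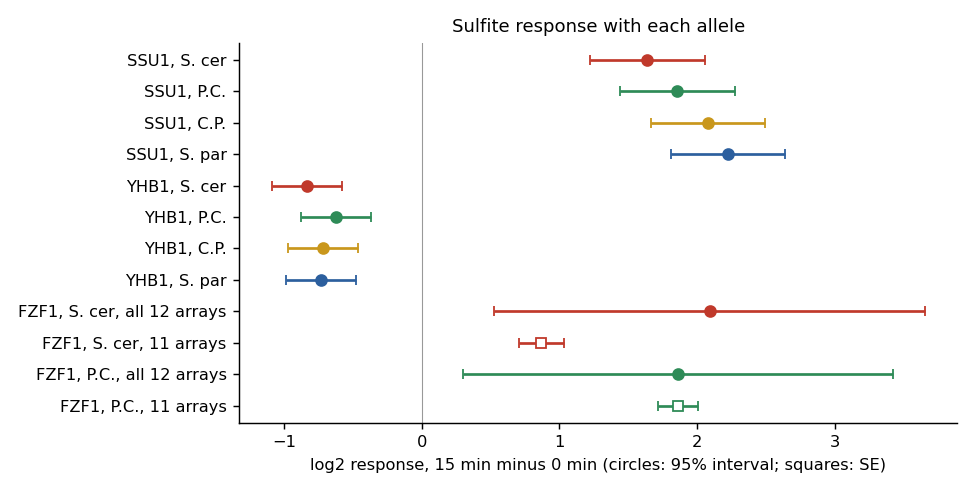
Change from 0 to 15 min (log2, x axis) of *SSU1* and *YHB1* with each allele and of *FZF1* with the 2 alleles that carry the *S. cerevisiae* coding region; circles are limma estimates with 95% intervals, and squares are estimates with their SE without the array labelled *S. cerevisiae* allele, 0 min, replicate 2. The *SSU1* responses lie between 1.64 and 2.22 and those of *YHB1* between −0.83 and −0.62, while the *FZF1* response of the *S. cerevisiae* allele moves from 2.09 to 0.87.

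Before sulfite, mean *SSU1* levels were −1.63 ± 0.22 (*S. cerevisiae* allele), −1.49 ± 0.18 (C.P. chimera), −1.47 ± 0.08 (P.C. chimera) and −1.08 ± 0.14 (*S. paradoxus* allele), all SD with n = 3. Only the *S. paradoxus* allele stood clear of the rest by array, a pattern shown by 0.541% of genes. The *S. paradoxus* allele exceeded the *S. cerevisiae* allele by 0.55 at 0 min (95% interval 0.14 to 0.97, unadjusted p = 0.0115), and by 0.68 (SE 0.22) without the array labelled *S. cerevisiae* allele, 0 min, replicate 2, and it did not pass after adjustment in either case. Neighbours in this order differed by 0.14, 0.02 and 0.39, each with an SE of 0.20.

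At 15 min the means were 0.01 ± 0.13 (*S. cerevisiae* allele), 0.39 ± 0.22 (P.C. chimera), 0.59 ± 0.53 (C.P. chimera) and 1.15 ± 0.28 (*S. paradoxus* allele), again SD with n = 3. The *S. paradoxus* allele again lay above the other 9 arrays, as for 3.52% of genes that did not overlap in this way. The P.C. chimera differed from the *S. cerevisiae* allele by 0.38 (95% interval −0.04 to 0.79). The chimeras differed from each other by 0.20 (95% interval −0.22 to 0.61, higher with C.P.). The C.P. chimera was below the *S. paradoxus* allele by 0.56 (95% interval 0.15 to 0.98, adjusted p = 0.228, 0.147% of genes called), so no pair of neighbours was resolved by the test. The P.C. chimera was below the *S. paradoxus* allele by 0.76 (95% interval 0.35 to 1.18), just outside the limit (adjusted p = 0.0501, 2.06% of genes called). It passed when any 1 of 4 arrays was left out: the C.P. chimera, 15 min, replicate 1 (adjusted p = 0.0185) or replicate 3 (0.0429), or the *S. paradoxus* allele, 0 min, replicate 3 (0.0473), which enter only the pooled spread, or the P.C. chimera, 15 min, replicate 2 (0.0397).

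Between the full length alleles at 15 min *SSU1* was 2.20-fold higher with the *S. paradoxus* allele (1.14, SE 0.20, adjusted p = 0.0277), and limma called 2 genes (0.0491%). The other gene called was *FZF1*, which is not comparable between these alleles. Leaving out 1 array of either allele could end the call of *SSU1*. It was lost without replicate 1 (1.15, adjusted p = 0.159) or replicate 3 (1.07, adjusted p = 0.286) of the *S. cerevisiae* allele at 15 min. It was also lost without replicate 2 (1.19, adjusted p = 0.0924) or replicate 3 (0.98, adjusted p = 0.0667) of the *S. paradoxus* allele at 15 min.

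The 4 alleles allow the coding and the noncoding region to be set against each other with 6 arrays on each side. *SSU1* averaged higher with the *S. paradoxus* than with the *S. cerevisiae* coding region at 15 min, by 0.67 (95% interval 0.38 to 0.96), or 1.59-fold. With the *S. paradoxus* coding region the 6 arrays read −0.03 to 1.46, and with the *S. cerevisiae* coding region −0.13 to 0.54. The ranges overlapped through a single array of the *S. paradoxus* coding region, the C.P. chimera at 15 min, replicate 1. In an exact permutation test of the 6 against 6 arrays the two-sided p was 0.0216 (1 of 12 such tests of *SSU1* and *YHB1*, without adjustment, the smallest possible being 0.00216). In limma *SSU1* had the third smallest p of 4071 genes for this effect but did not pass (unadjusted p = 0.000122, adjusted p = 0.166), behind *FZF1*, which is not comparable here, and *ARO10*, which decarboxylates the keto acids of aromatic amino acids. These were the 2 genes called (0.0491%). Without the C.P. array at 15 min, replicate 1, the effect was 0.82 (SE 0.11) and passed (adjusted p = 0.00109), with 2 genes called (0.0491%). That array had the lowest *SSU1* of the 6 with the *S. paradoxus* coding region, so leaving it out raises the estimate. Over 27 limma fits that left out 1 array or replicate number, the estimate was 0.42 to 0.92 and the adjusted p 0.00109 to 0.999. The effect passed in 2 of them.

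The noncoding region went the same way for *SSU1*, with a smaller estimate. At 15 min *SSU1* was higher with the *S. paradoxus* noncoding region by 0.47 (95% interval 0.18 to 0.76), with 6 arrays at 0.14 to 1.46 against 6 at −0.13 to 0.89. The exact permutation p was 0.117 (two-sided), and the unadjusted p of 0.0033 from limma, the sixth smallest of 4071, did not pass after adjustment (limma called no gene, and 104 had an unadjusted p under 0.05). The permutation test did not hold the coding region fixed, so the coding difference stayed in its spread, unlike in limma. At 0 min the estimates were 0.27 (95% interval −0.03 to 0.56) for the coding region and 0.29 (95% interval −0.01 to 0.58) for the noncoding region, with exact permutation p of 0.0736 and 0.0455. Over both times they were 0.47 (SE 0.10, adjusted p = 0.189) and 0.38 (SE 0.10, unadjusted p = 0.00111), and the noncoding effect had the second smallest p of all genes without passing. Without the array labelled *S. cerevisiae* allele, 0 min, replicate 2 they were 0.50 and 0.41 over both times (SE 0.10 each) and 0.33 and 0.35 at 0 min (SE 0.15 each), and none passed. The noncoding effect minus the coding effect is, by construction, the P.C. minus the C.P. chimera. In limma this was −0.20 at 15 min (95% interval −0.61 to 0.22) and 0.02 at 0 min (95% interval −0.39 to 0.44). The regions' effects were thus not resolved from each other.

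An interaction of the regions was not resolved for *SSU1*. It is taken as the excess of the coding effect under the *S. paradoxus* noncoding region over that under the *S. cerevisiae* noncoding region, and was 0.18 at 15 min (95% interval −0.40 to 0.77, where 0.368% of genes were called), and −0.12 without the C.P. chimera, 15 min, replicate 1. For the response, the coding region gave 0.40 (95% interval −0.01 to 0.82, adjusted p = 0.739) and the noncoding region 0.18 (95% interval −0.23 to 0.60), or 0.34 and 0.12 without the array labelled *S. cerevisiae* allele, 0 min, replicate 2. When the arrays of 1 number were taken as 1 culture, the exact permutation p of these responses were 0.0216 and 0.316, although the replicate numbers do not clearly mark cultures.

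**Figure D4:**
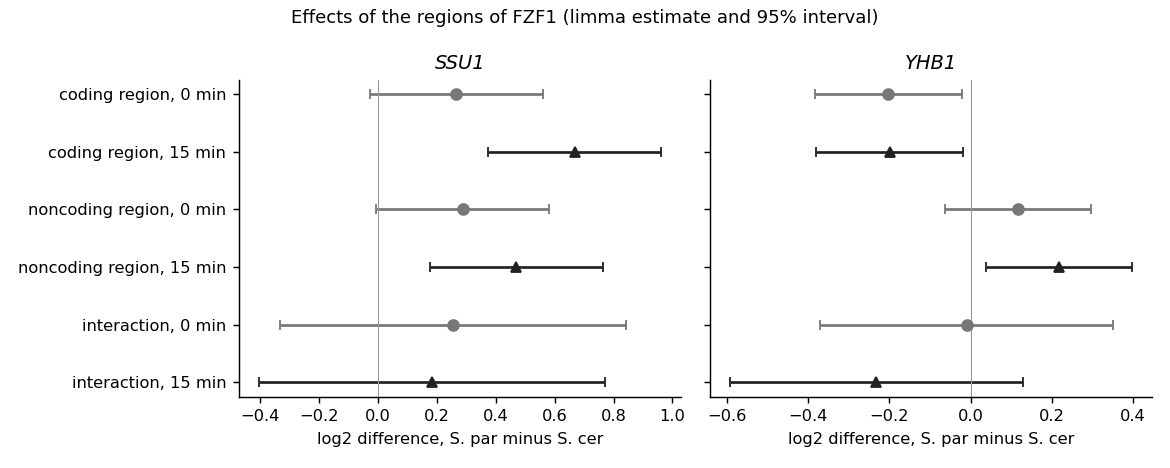
Difference in level (log2, x axis; *S. paradoxus* minus *S. cerevisiae* region) of *SSU1* and *YHB1* for the coding and the noncoding region of *FZF1*, and their interaction, at 0 min (circles) and 15 min (triangles), as limma estimates with 95% intervals. For *SSU1* both regions lie above 0 at 15 min (0.67 and 0.47), and for *YHB1* the coding region lies below 0 (−0.20) and the noncoding region above (0.22).

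Over all 4 alleles, limma's F-test of an allele effect on *SSU1* over both times gave an adjusted p of 0.078, the fourth smallest unadjusted p, with 3 genes called (0.0737%). This F-test passed when any 1 of 3 arrays was left out: the C.P. chimera, 15 min, replicate 1 (adjusted p = 0.00275), the P.C. chimera, 15 min, replicate 2 (adjusted p = 0.0378), or the array labelled *S. cerevisiae* allele, 0 min, replicate 2 (adjusted p = 0.0359). The linear model described in the study's methods counts the features of an array separately and uses an unadjusted limit of 0.01. In it the allele effect on *SSU1* had a P of 4.99e-10, where 12.1% of genes passed. In its second model, which has the regions but no time, the coding region had a P of 0.11 and the noncoding region a P of 0.216, where 0.319% and 0.246% of genes passed. With time in the model these became 6.52e-09 and 1.45e-06, where 3.31% and 1.3% of genes passed.

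*YHB1* moved the other way from *SSU1*: it fell after sulfite with every allele, 1.65-fold on average. With the *S. cerevisiae* allele *YHB1* read 0.13, 0.61 and 0.38 at 0 min and −0.60, −0.51 and −0.27 at 15 min. With the *S. paradoxus* allele it read 0.14, 0.23 and 0.50 at 0 min and −0.52, −0.49 and −0.31 at 15 min. These alleles covered nearly the same range at each time. The C.P. chimera read 0.07, 0.32 and 0.15 at 0 min and −0.63, −0.53 and −0.46 at 15 min. The P.C. chimera read 0.53, 0.44 and 0.52 at 0 min and −0.10, −0.13 and −0.14 at 15 min. No array at 0 min overlapped any at 15 min, as for 38.7% of genes, and the P.C. chimera had the least spread and the highest mean at both times.

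The mean response of *YHB1* was −0.73 (SE 0.06, adjusted p = 7.47e-10, limma), where 39.6% of genes fell past the test. By allele it was −0.83 (*S. cerevisiae*), −0.73 (*S. paradoxus*), −0.72 (C.P.) and −0.62 (P.C.), each with an SE of 0.12, and each passed. Without the array labelled *S. cerevisiae* allele, 0 min, replicate 2 that of the *S. cerevisiae* allele was −0.71 (SE 0.13, adjusted p = 8.2e-05). On that array the 2 features of *YHB1* differed by 1.02, a gap reached by 36 of 4067 genes there, so its reading of 0.61 is less certain than the others. The coding region changed the response by 0.00 (95% interval −0.25 to 0.26) and the noncoding region by 0.10 (95% interval −0.15 to 0.36). Without that array these were −0.06 and 0.04 (SE 0.12 each).

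The full length alleles were close in *YHB1*, with a difference of −0.08 at 0 min (95% interval −0.34 to 0.17) and 0.02 at 15 min (95% interval −0.24 to 0.27). The sign at 0 min turned, to 0.03 (SE 0.13), without the array labelled *S. cerevisiae* allele, 0 min, replicate 2. The chimeras were apart: at 15 min *YHB1* was higher with the P.C. than with the C.P. chimera by 0.42 (95% interval 0.16 to 0.67), or 1.34-fold. This had the second smallest p of 4071 genes in that comparison (unadjusted p = 0.00276, limma), behind *FZF1*, which is not comparable here. *YHB1* did not pass after adjustment, where *FZF1* alone (0.0246% of genes) was called. The 3 P.C. arrays at 15 min, −0.14 to −0.10, lay above the 9 arrays of the other alleles, −0.63 to −0.27, as for 0.369% of genes that did not overlap in this way. At 0 min the P.C. arrays, 0.44 to 0.53, fell within the 0.07 to 0.61 of the other 9. The reading of 0.61 is that of the array labelled *S. cerevisiae* allele, 0 min, replicate 2. Without it the other alleles reached 0.50, below the P.C. readings of 0.53 and 0.52 and above that of 0.44.

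The regions of *FZF1* had opposite signs for *YHB1*, which restates that the full length alleles were close and the chimeras apart. With the *S. paradoxus* coding region *YHB1* was lower by 0.20 at each time (95% interval −0.38 to −0.02), and with the *S. paradoxus* noncoding region it was higher by 0.12 at 0 min (95% interval −0.06 to 0.30) and 0.22 at 15 min (95% interval 0.04 to 0.40). The exact permutation p were 0.0606 and 0.0693 for the coding region at 0 and 15 min, and 0.286 and 0.0476 for the noncoding region (two-sided). Over both times the coding effect was −0.20 (SE 0.06, unadjusted p = 0.00371, eleventh smallest of 4071) and the noncoding effect 0.17 (SE 0.06, unadjusted p = 0.0125), and neither passed after adjustment in limma. They were −0.17 and 0.20 (SE 0.06 each) without the array labelled *S. cerevisiae* allele, 0 min, replicate 2, and −0.14 and 0.18 (SE 0.08 each) at 0 min. An interaction of the regions was not resolved for *YHB1* at 15 min (−0.23, 95% interval −0.59 to 0.13). The F-test of an allele effect on *YHB1* gave an adjusted p of 0.473. In the linear model of the study's methods its P was 0.000635.

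Across the 24 arrays *SSU1* and *YHB1* correlated at −0.822, and at 0.055 once the mean of each time was taken off, so the opposition was seen between the times and not within them. Correlations here describe arrays that share alleles, dyes and a reference pool. The genes most like *SSU1* among 4066 were *GTT1* (0.972), a glutathione transferase, *TFS1*, an inhibitor of carboxypeptidase Y, *UBC5*, a ubiquitin-conjugating enzyme, *SDH3*, a subunit of succinate dehydrogenase, and *OSH6*, an oxysterol-binding protein homolog. With the time means taken off, *GTT1* was again first (0.776), followed by *OCH1*, *ATP5*, *HMT1* and *CIC1*. For *YHB1* the nearest were *RDH54* (0.932), a DNA repair translocase, *SDA1*, *TRM7*, *CBF5* and *GLN4*, of which *SDA1*, *TRM7* and *CBF5* act in ribosome assembly or RNA modification. With the time means taken off they were *GCN2* (0.629), *SDA1*, *IRR1*, *RDH54* and *ADE13*. Without the array labelled *S. cerevisiae* allele, 0 min, replicate 2, *GTT1* stayed nearest to *SSU1* (0.971) and *RDH54* to *YHB1* (0.943), while *POL2*, *CCT5* and *FUR1* entered the nearest 5 of *YHB1*.

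For *FZF1*, over the 12 arrays of the *S. cerevisiae* coding region, the nearest genes were *MET3* (0.895), the ATP sulfurylase that opens sulfate assimilation, *HXT10*, *POR2*, *GPB2* and *DAL5*. With the time means taken off they were *SPS18* (0.91), *PHO11*, *MET3*, *DGK1* and *HXT10*. These correlations rest on the array labelled *S. cerevisiae* allele, 0 min, replicate 2. Without it the nearest genes were *LEU1* (0.982), *ADE2*, *PIB1*, *RSC9* and *RTS1*, and with the time means taken off *LEU1* (0.945), *MYO4*, *CHC1*, *ADE2* and *DGK1*. *FZF1* and *SSU1* correlated at 0.663 over the 12 arrays and at 0.027 with the time means taken off, and at 0.901 and 0.724 over 11 arrays without it. Among 4067 genes *SSU1* thus ranked 566 and 2080 over the 12 arrays, and 38 and 59 over the 11. *YHB1* correlated with *FZF1* at −0.577 and 0.668 over the 11 arrays.

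Of the 5 measured genes next to the members on the chromosomes, 2 rose and 3 fell. Beside *SSU1* lie *NOG1*, a GTPase of ribosome assembly, which fell by 3.08, and *GLR1*, glutathione reductase, which rose by 0.42. Beside the native place of *FZF1* lie *ZRT1*, the high affinity zinc transporter, which fell by 0.86, and *HXK2*, a hexokinase, which fell by 0.38. Beside *YHB1*, *PHO81*, an inhibitor of the Pho80-Pho85 kinase, rose by 0.21. All 5 of these mean responses passed the test (limma, adjusted p of 0.00386 or less), as did 79.1% of all genes. For the coding region at 15 min their estimates were −0.20 to 0.02, and none passed.

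The pathways that Ssu1 and Yhb1 belong to moved in both directions, and the coding region of *FZF1* changed no member of the 5 lists past the test, over both times or at 15 min. Over both times none had an unadjusted p under 0.05, where 1.92% of all genes did. Among all 4071 genes 1609 rose and 1611 fell in the mean of the 4 alleles, with a median response of 0.01. Of the 11 genes of sulfate uptake and reduction to sulfide, 7 rose and 2 fell, with a median of 0.47. *MET22*, the phosphatase that clears a byproduct of sulfate reduction, rose by 1.73, *MET16*, the PAPS reductase, by 1.01, and *MET1*, of siroheme synthesis, by 0.96. *MET5* and *MET10*, subunits of the reductase that turns sulfite into sulfide, rose by 0.26 and 0.83.

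Of 15 measured regulators of sulfur, weak acid and drug response, 7 rose and 4 fell, with a median of 0.04. *MET28*, a cofactor of the sulfur activator Met4, rose by 2.23, *STB5*, a regulator of multidrug resistance and NADPH supply, by 1.38, and *MSN2*, a general stress activator, by 0.65. *MET32*, a DNA-binding partner of Met4, fell by 0.32. Of 19 other plasma membrane exporters, 10 rose and 7 fell, with a median of 0.38. *TPO4* (2.61), a polyamine exporter, *QDR3* (1.84) and *AQR1* (1.75), of the multidrug transporters, rose most, and *SNQ2* rose by 0.49. *PDR5*, a drug efflux pump, fell by 0.92. For the coding region at 15 min 5 of the 19 exporters (26.3%) had an unadjusted p under 0.05, against 6.07% of all genes, and all 5 estimates were lower with the *S. paradoxus* coding region. They were −0.48 for *TPO4*, −0.34 for *PDR12*, −0.33 for *PDR5*, −0.27 for *AQR1* and −0.24 for *SNQ2*, and none passed after adjustment. No member of the other 4 lists had an unadjusted p under 0.05 for this effect.

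Of 23 genes of nitric oxide and oxidant defence, the functions nearest to that of *YHB1*, 13 rose and 5 fell, with a median of 0.42. *CTT1*, the cytosolic catalase, rose by 4.54, *TSA2*, a peroxiredoxin, by 3.14, *GPX1*, a glutathione peroxidase, by 2.23 and *TRR2*, mitochondrial thioredoxin reductase, by 0.86. *GSH2*, glutathione synthetase, had a mean response of 0.04 that did not pass. *SFA1*, which reduces nitrosoglutathione, fell by 0.19. Of 12 genes of heme synthesis and its regulation, heme being the cofactor of Yhb1, 6 rose and 3 fell, with a median of 0.23. *HMX1*, heme oxygenase, rose by 1.60 and *HEM1*, the first enzyme of heme synthesis, by 0.83, whereas *HEM13*, coproporphyrinogen oxidase, fell by 0.73, *HEM2* by 0.20 and *HEM3* by 0.16. Other genes known to depend on Fzf1 (*DDI2*, *DDI3* and YNR064C) were not analysed here.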

How the data were processed

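Per the labels and the study's methods, cDNA from 24 samples was hybridised against a pool of all RNA. The authors deposited each feature's log2 ratio, sample over pool, after median normalization of every array; the background correction is not given in the sources used here. Each group has 2 arrays with the sample labelled in Cy3 and 1 in Cy5. Signal and background intensities were not used, and the 3 arrays of a group limit the precision.

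Features were matched to the probe list by their place on the grid, since 2 features of a gene correlated at a median of 0.928 this way and −0.00566 by equal numbers. The 2 features of a gene were averaged and arrays centred on the median gene. In addition, 125 symbols were updated through a RefSeq gene table. The 8 groups were fitted in limma 3.58.1 (R 4.3.3) for 4071 genes, each measured on at least 2 arrays per group. *FZF1* was fitted on the 12 arrays of its *S. cerevisiae* coding region. Benjamini-Hochberg adjustment ran over all genes of a contrast, with 0.05 as the limit. Exact permutation tests (numpy 2.4.6) compared arrays for 1 gene, and those of a region did not hold the other region fixed. Data for the coding effect at 15 min were simulated with independent noise and 200 genes of equal change among 4067 genes. The fit recovered 71.3% of changes of 0.5 and 95.8% of changes of 1. With that many changed genes the adjusted limit is looser than in the arrays, where 2 genes were called. These shares are thus not the power of the tests reported here. The transformants were sampled at both times, and the fit takes each array as an observation.

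Named genes are the 3 members; for each, the 5 genes of highest correlation, with and without the time means; the chromosomal neighbours; and in each list the 3 largest responses and the 2 smallest p for the coding region. *SFA1*, *PDR12*, *ARO10*, the marker *URA3* and the correlations without 1 array were chosen after seeing the data. The members and lists were chosen with earlier results of these data known. Tests by dye, block, scaling, feature, weights, filter and left-out arrays were tried as alternatives, and plots used matplotlib 3.10.9.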

Additional observations from a re-analysis of the deposited data

How the results depend on the processing

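The mean responses of *SSU1* and *YHB1* passed under every alternative run (1.90 to 2.03 and −0.77 to −0.68 on the log2 scale). The estimates of the coding and noncoding effects on both genes at 15 min and over both times kept their sign. Estimates near 0 did not: on leaving out arrays the coding effect on the *YHB1* response, 0.00, was as low as −0.06, and the difference in *YHB1* between the full length alleles at 15 min, 0.02, as low as −0.05. With array weights the coding effect on *SSU1* at 15 min passed (0.65, adjusted p = 0.0188). Leaving out 1 array or replicate number gave 0.42 to 0.92 for it and 0.28 to 0.61 over both times. The difference in *SSU1* between the full length alleles at 15 min missed the limit after quantile normalization (1.23, adjusted p = 0.0854) and with the first feature alone (1.14, adjusted p = 0.0836), and was 0.91 to 1.25 on leaving out arrays. The adjusted p of the allele effect on *SSU1* was 0.0287 with a dye term, 0.038 without centring, 0.0296 with the second feature alone, 0.0042 with array weights and 0.00275 to 0.568 on leaving out arrays. That on *YHB1* was 0.0177 with array weights. The linear model of the study's methods gave P of 4.99e-10 and 0.000635 for these, with 491 genes. The *FZF1* difference at 15 min was 0.82 to 1.17 over 16 alternatives of processing, with 0 genes called. On leaving out arrays it was 1.05 to 1.27, with 0 to 1 genes called. The cause of these changes was not tested.

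Counts of genes moved more. For the coding region at 15 min (2 genes) limma called 1 after quantile normalization, with the second feature alone or without the C.P. arrays numbered 3 (chosen after seeing the data), 155 with array weights, 522 with Cy3 arrays alone and 1 to 726 on leaving out arrays. For the full length alleles at 15 min (2 genes) it called 5 with a dye term, 1 after quantile normalization or with the first feature, 1081 with array weights, 184 with Cy3 arrays alone and 0 to 10 on leaving out arrays. For the allele effect (3 genes) it called 6 with a dye term, 5 without centring or with the second feature, 415 with array weights, 184 with Cy3 arrays alone and 1 to 234 on leaving out arrays. For the noncoding region (0 genes) it called 0 to 1 on leaving out arrays.

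Arrays of 1 allele with the same number at both times deviated together at a median correlation of 0.402 (−0.466 to 0.763 over 12 pairs), and those with other numbers at −0.159. The 6 pairs of the full length alleles ranged from 0.413 to 0.763, those of the P.C. chimera from −0.466 to −0.012 and those of the C.P. chimera from −0.052 to 0.392. Not every pair was above 0, so the numbers were not taken as pairs. Arrays of different alleles, which share no culture, correlated in the same way at a median of 0.34 for equal numbers and −0.226 for other numbers. Within the P.C. chimera the 2 Cy5 arrays, replicate 3 at 0 min and replicate 2 at 15 min, correlated at 0.419. Whether number, dye or culture underlies these correlations was not tested. With the replicate number as a block the allele effect on *SSU1* passed (adjusted p = 0.0478), as did its difference between the P.C. chimera and the *S. paradoxus* allele at 15 min (adjusted p = 0.0265), 5 genes were called for the allele effect, and no other call on the members changed.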

Other observations

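*URA3*, integrated with every allele, had an SD of 0.89 to 1.81 between the 3 arrays in 5 of the 8 groups. With the *S. paradoxus* allele it read −1.61, −1.58 and −1.30 at 0 min and −0.57, −0.46 and −0.37 at 15 min, a narrow range at each time. With the C.P. chimera it read −1.62, −0.66 and 1.34 at 0 min and −0.41, 0.52 and 2.30 at 15 min, the same order of the replicates at both times. Replicate 3 of that chimera also had the highest *FZF1* reading of the alleles with the *S. paradoxus* coding region (−2.90 and −2.47), and its *SSU1* was −1.31 and 0.89. With the P.C. chimera *URA3* read −1.93, 0.01 and −1.90 at 0 min and −0.57, −0.01 and 1.17 at 15 min, so the highest reading was on replicate 2 at 0 min and on replicate 3 at 15 min. Replicate 3 carried the Cy5 label in all groups except P.C. at 15 min, in which replicate 2 did. Over the 8 groups the Cy5 array read above the mean of the Cy3 arrays by 0.14 for *SSU1* and 0.11 for *YHB1* on average. For *FZF1* the gap was −0.02 to 0.08 in 4 groups, 0.80 with the *S. paradoxus* allele at 0 min, 1.76 and 2.03 with the C.P. chimera, and 1.61 in the group that holds the array labelled *S. cerevisiae* allele, 0 min, replicate 2.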
